A study of Homo sapiens with 27 samples.

Results

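Bulk RNA sequencing libraries of DU145 cells, an established human prostate cancer line, were compared between cells carrying RIPK2 gRNA 2 and cells carrying a control gRNA. The comparison holds 6 of the 27 libraries of the series: control replicates 1, 2 and 3 and gRNA 2 replicates 1, 2 and 3. Replicate numbers are those of the sample titles. In the column names of the DU145 count table, gRNA 2 replicates 1, 2 and 3 are sgRNA2_2, sgRNA2_3 and sgRNA2_4. The series describes the targeted cells as RIPK2 knockouts. It also holds DU145 cells with RIPK2 gRNA 10 (3 libraries) and PC3 cells, another prostate cancer line, with a control gRNA or RIPK2 gRNA 2 (3 libraries each), which are used here where a difference from them was tested. Neither the guide sequences nor whether a population is 1 clone or a pool of edited cells is given in the labels. The labels do not say whether the replicates are separate cultures, so the p-values measure the spread between these samples, which may be technical. No treatment is named for any group.

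RIPK2 encodes a kinase and adaptor that binds the peptidoglycan sensors NOD1 and NOD2. Its ubiquitinated form recruits the TAK1 and IKK complexes, which release NF-kB into the nucleus and activate the p38 and JNK kinases. NF-kB in turn switches on chemokine, cytokine and survival genes as well as its own inhibitors, such as NFKBIA and TNFAIP3.

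Library totals lay between 20003797 and 20404302 counts in the 6 libraries, and a library with 0 counts of a gene allows up to 3, which is 0.144 to 0.166 CPM (the counts-per-million scale, library totals being adjusted by TMM factors). Control libraries resembled one another with Pearson correlations of log2 CPM of 0.998 across 14543 genes, and gRNA 2 replicates 1 and 2 had 0.994. The gRNA 2 replicate 3 library stood apart from its mates, with 0.982 and 0.977. Among 11087 genes with a mean of at least 100 counts in the gRNA 2 group, 492 differed by more than 1 log2 unit between replicate 3 and the mean of its mates, 109 higher and 383 lower, against 53 for replicate 1 and 79 for replicate 2. Mitochondrially encoded genes took 1.26% to 1.32% of counts in the control libraries. Their share was 1.75% in gRNA 2 replicate 1 (Wilson 95% interval 1.75% to 1.76%), 2.12% in replicate 2 (2.11% to 2.13%) and 2.89% in replicate 3 (2.88% to 2.90%). Intervals and floors cover counting error only. Counts of calls against control are given with and without replicate 3, and gene values also without it where it moves them by over 1.5 times.

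Of the markers fixed for DU145-like epithelial cells, KRT8, KRT18, KRT19, KRT7, EPCAM, CDH1 and VIM were detected in all 6 libraries. KRT5, the remaining marker of that list, had no entry among the counts. The summed level was 2413 to 2584 CPM in control and 3417 to 5551 CPM in gRNA 2. Markers of androgen receptor positive prostate cells summed to 164 to 173 CPM in control and 133 to 177 CPM in gRNA 2. Of these 12 markers, 5 had enough counts to be tested. The leukocyte markers summed to 3.84 to 4.69 CPM in control and 0.719 to 2.13 CPM in gRNA 2, of which CD14 and ITGAM made up most, and PTPRC stayed under 0.05 CPM. Fibroblast markers summed to 14.4 to 15.6 CPM in control and 5.92 to 12.6 CPM in gRNA 2, nearly all from COL1A1, with DCN and LUM at 0. Endothelial markers stayed under 1.2 CPM in total.

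RIPK2 itself (hg38 chromosome 8, 89757747 to 89791063) was the first gene examined. Its level was 39.4, 44.4 and 43.5 CPM in the control libraries and 9.87, 13.3 and 12.2 CPM in the gRNA 2 libraries. All gRNA 2 libraries were below all control libraries, and replicate 3 lay between its mates. The log2 fold change was -1.84 ± 0.12 (SE) with an adjusted p of 4.49e-06, and -1.86 without replicate 3. In the gRNA 10 cells RIPK2 averaged 34.8 CPM, and gRNA 2 differed from gRNA 10 by -1.56 on the log2 scale (adjusted p = 8.7e-06). The tables count transcripts, so RIPK2 protein is not measured here.

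Among 14908 genes tested, 5072 (34%) were called at a Benjamini-Hochberg adjusted p below 0.05, 2543 higher (17.1%) and 2529 lower (17%) with gRNA 2. Changes of at least 1 log2 unit were called for 1314 genes (8.81%), of which 470 rose (3.15%) and 844 fell (5.66%). Without replicate 3 the calls numbered 6957 of 15176 genes (45.8%), 3517 higher (23.2%) and 3440 lower (22.7%). These shares are the ones to set beside the list counts below, with and without replicate 3. Of the 5072 genes, 4975 were also called in the same direction without replicate 3 and 97 were not. Leaving out control replicate 1, 2 or 3 left 3259, 3399 or 3329 calls. The median log2 fold change over all genes tested was 0.01.

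The largest rise was that of MAL2, a membrane proteolipid of epithelial transcytosis on chromosome 8 (119165034 to 119245673). MAL2 had 0.864, 0.575 and 1.17 CPM in control and 62.0, 74.4 and 64.3 CPM with gRNA 2, a log2 fold change of 6.26 ± 0.18 (SE, adjusted p = 1.54e-08). CXCL5, a neutrophil chemokine on chromosome 4 (73995642 to 73998779), was next. CXCL5 had 2, 3 and 1 counts in the control libraries against 5.81, 6.43 and 5.42 CPM with gRNA 2, at least 40.7-fold higher than a floor of 3 counts per library (adjusted p = 7.88e-07). Tenascin-C (TNC), an extracellular matrix glycoprotein on chromosome 9 (115019578 to 115118257), rose from 2.31, 2.35 and 2.44 CPM to 70.3, 80.2 and 79.8 CPM, a log2 fold change of 5.02 ± 0.11 (SE, adjusted p = 3.04e-09). For these 3 genes the gRNA 2 libraries were close to one another, and leaving out replicate 3 moved the log2 fold change by less than 0.1.

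Other large rises were shared less evenly by the gRNA 2 libraries. KRTAP2-3, a keratin-associated protein gene, had 0.816, 0.815 and 0.586 CPM in control and 3.42, 3.31 and 40.2 CPM with gRNA 2. Its log2 fold change was 4.38 ± 0.99 (SE, adjusted p = 0.0073) with replicate 3 and 2.18 without it, so that replicate 3 carried most of the level, and it was not called with no filter on low counts (adjusted p = 0.059). Lymphotoxin beta (LTB), a TNF-family cytokine, behaved alike, with 3.67 and 3.22 CPM in replicates 1 and 2 and 12.7 CPM in replicate 3 against 0.288 to 0.439 CPM in control. PDZK1IP1, a small membrane protein that binds PDZ domains, went the other way, with 34.4, 24.5 and 9.85 CPM against 1.20 to 1.49 CPM, and its log2 fold change of 4.05 became 4.41 without replicate 3. FAM110C rose from 0.671 to 0.927 CPM in control to 13.0, 13.6 and 16.7 CPM, and BTBD11 from 1.06 to 1.66 CPM to 19.15, 19.97 and 20.02 CPM.

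**Figure D1:**
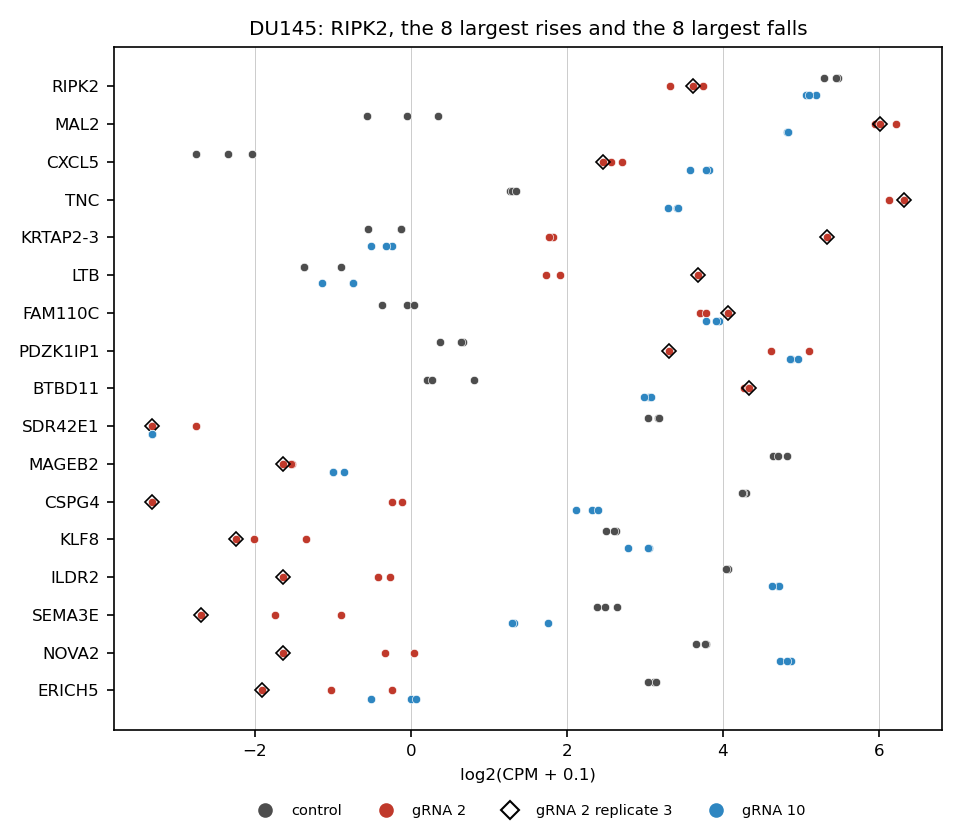
Level of RIPK2 and of the 8 largest rises and 8 largest falls in each DU145 library, on a log2(CPM + 0.1) axis, with a point for each of the 3 control, 3 gRNA 2 and 3 gRNA 10 libraries. Control and gRNA 2 points do not overlap for any gene shown, which was a condition for naming the rises and falls. This held for 46.6% of all genes tested. The outlined point of gRNA 2 replicate 3 lies to the right of its mates for KRTAP2-3 and LTB.

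The largest falls left under 1 CPM in every gRNA 2 library. SDR42E1, a member of the short-chain dehydrogenase/reductase family, had 8.88, 8.97 and 8.15 CPM in control and 0, 1 and 0 counts with gRNA 2, at least 56.4-fold lower (adjusted p = 4.53e-06). MAGEB2, a cancer testis antigen on the X chromosome (30215560 to 30220089), had 28.1, 24.98 and 26.1 CPM in control and 0.248, 0.244 and 0.221 CPM with gRNA 2, a log2 fold change of -6.75 ± 0.17 (SE, adjusted p = 5.26e-09). SDR42E1 was also at 0 in the gRNA 10 cells and MAGEB2 averaged 0.418 CPM there. Over the whole table, 74 genes called lower had 3 counts or fewer in every gRNA 2 library, and 35 genes called higher had 3 or fewer in every control library.

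CSPG4, a cell surface proteoglycan, had 19.5, 19.03 and 18.8 CPM in control and 0.744, 0.828 and 0 CPM with gRNA 2. Replicate 3 was the lowest gRNA 2 library for CSPG4, and the log2 fold change of -5.13 ± 0.41 (SE) became -4.59 without it. The zinc finger transcription factor KLF8 went from 5.56 to 6.10 CPM in control to 0.111 to 0.292 CPM. The immunoglobulin-like receptor ILDR2 went from 16.3 to 16.6 CPM to 0.221 to 0.731 CPM, and the neuronal splicing regulator NOVA2 from 12.5 to 13.7 CPM to 0.221 to 0.926 CPM. With gRNA 10, KLF8, ILDR2 and NOVA2 averaged 7.73, 25.6 and 28.0 CPM, and gRNA 2 was lower than gRNA 10 by 5.32, 5.55 and 5.47 log2 units. The guidance cue SEMA3E (5.14 to 6.15 CPM in control, 0.0553 to 0.438 CPM with gRNA 2) and ERICH5 (8.10 to 8.73 CPM, 0.166 to 0.744 CPM) complete the 8 largest falls.

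The NOD and RIPK2 signalling list covers the receptors, their kinases and the ubiquitin enzymes that act on RIPK2. Of 30 tested NOD and RIPK2 signalling genes, 7 were called higher (23.3%, against 17.1% of all genes) and 4 lower (13.3%, against 17%), with a median log2 fold change of 0.02, against 11 and 4 without replicate 3 and 2 lower without control replicate 1 or 2. The 4 called lower include RIPK2 itself, the targeted gene. NOD1 fell from 14.3 to 15.1 CPM to 10.7 to 12.3 CPM (log2 fold change -0.38 ± 0.11 SE, adjusted p = 0.020). NOD2 had 5 to 8 counts in control and 0 to 3 with gRNA 2, which was not called (adjusted p = 0.059). IKBKG, the regulatory subunit of IKK, and TRAF6, a ubiquitin ligase upstream of TAK1, were called lower at -0.52 and -0.37. The rises were led by TNFAIP3, a ubiquitin-editing inhibitor of NF-kB (10.2 to 11.7 CPM in control, 48.8 to 62.0 CPM with gRNA 2), and BIRC3, an inhibitor of apoptosis with ubiquitin ligase activity (20.6 to 24.7 CPM, 91.1 to 119 CPM). BIRC2, OTULIN, CYLD, RBCK1 and MAP2K3 were also called higher, by 0.34 to 0.62 log2 units. NOD1 was not called with any 1 control library left out (adjusted p up to 0.076), and TRAF6, RBCK1, CYLD and OTULIN were each not called under at least 1 alternative (adjusted p up to 0.187, 0.0902, 0.0819 and 0.0525).

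Next came the subunits and inhibitors of NF-kB itself. Of 15 tested, 6 were called higher (40%, against 17.1% of all genes) and 1 lower (6.67%, against 17%). The median log2 fold change was 0.23, against 0.01 over all genes. Without replicate 3, 7 were higher and 3 lower (23.2% and 22.7% of all genes). NFKBIZ, a nuclear co-regulator of NF-kB, had 7.40, 8.05 and 6.93 CPM in control and 45.8, 52.7 and 37.2 CPM with gRNA 2, a log2 fold change of 2.60 ± 0.13 (SE, adjusted p = 1.5e-06). NFKBIA, the inhibitor that holds NF-kB in the cytoplasm, had 198, 193 and 204 CPM in control and 446, 405 and 476 CPM, a log2 fold change of 1.16 ± 0.08 (SE, adjusted p = 8.5e-06). TNIP1, RELB, NFKB2 and NFKBIE rose by 0.40 to 1.07 log2 units, of which NFKBIE was not called under at least 1 alternative (adjusted p up to 0.0797). BCL3, an atypical member of the inhibitor family, fell by 0.53. In each of these 7 genes the control and gRNA 2 libraries did not overlap, as was the case for 46.6% of all genes tested.

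Inflammatory targets of NF-kB formed the list with the largest median among the 22 lists with all libraries. Of 36 tested members (47 on the list), 23 were called higher (63.9%, against 17.1% of all genes) and 2 lower (5.56%, against 17%). The median log2 fold change was 0.97. Without replicate 3, 26 of 37 were called higher and 3 lower, with a median of 0.85. The list includes BIRC3, which stands in the NOD list as well.

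The chemokines that attract neutrophils rose together apart from CXCL6. CXCL8 had 9.41, 11.0 and 10.4 CPM in control and 59.4, 79.4 and 150 CPM with gRNA 2, a log2 fold change of 3.23 ± 0.30 (SE, adjusted p = 4.3e-05). CXCL2 had 23.7, 22.1 and 23.4 CPM in control and 82.7, 87.2 and 136 CPM, a log2 fold change of 2.15 ± 0.17 (SE). In both genes replicate 3 was the highest library. CXCL1 and CXCL3 rose by 0.96 and 1.43 log2 units. CXCL6, the closest neighbour of CXCL5 in sequence below, had 2.16 to 2.92 CPM in control and 1.88 to 3.46 CPM with gRNA 2 and was not called (log2 fold change 0.14 ± 0.23 SE, adjusted p = 0.66).

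The kappa B consensus, the site that NF-kB dimers recognise, was searched on both strands from 250 bases before to 50 bases after the start of each gene in RefSeq promoters of GRCh38.p14. It was found in 10.8% of 27305 promoters and in 13.4% of the 11288 promoters of genes tested. In the inflammatory target list 15 of 27 promoters with an entry held it (55.6%), among them 9 of the 19 belonging to genes called higher (47.4%). A match is a description of letters and not evidence of binding. The stretches around the match are shown for the CXCL chemokine genes, because these 5 share its letters and differ in their change, and for NFKBIA and BIRC3 as an inhibitor and a survival gene that rose. Capitals mark the match, which in the chemokine genes is a pair of overlapping matches on opposite strands.
CXCL5 (chr4:73998748-73998777, minus strand): atgagttcaGGGAATTTCCCcagcatccca
CXCL6 (chr4:73836579-73836608, plus strand): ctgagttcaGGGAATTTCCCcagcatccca
CXCL1 (chr4:73869285-73869344, plus strand): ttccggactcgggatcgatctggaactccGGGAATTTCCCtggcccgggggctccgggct
CXCL2 (chr4:74099253-74099282, minus strand): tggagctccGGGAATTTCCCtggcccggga
CXCL3 (chr4:74038748-74038777, minus strand): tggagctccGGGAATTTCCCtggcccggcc
NFKBIA (chr14:35404801-35404860, minus strand): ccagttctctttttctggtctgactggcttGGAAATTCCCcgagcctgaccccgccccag
BIRC3 (chr11:102317255-102317314, plus strand): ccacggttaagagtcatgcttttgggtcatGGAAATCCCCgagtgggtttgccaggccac

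In the chemokine promoters the match began 78 to 91 bases before the RefSeq start, in NFKBIA 81 and in BIRC3, which holds another match, 199. For CXCL2, CXCL3, CXCL5 and CXCL6 a longer stretch overlapped the gene as placed by the GENCODE annotation, so 30 bases are shown. The CXCL5 stretch lies within the gene span given above. The capitals are the same letters in CXCL5, which was at least 40.7-fold higher, and in CXCL6, which was not called.

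Among cytokines and secreted factors of the list, IL6, a cytokine of the acute phase, had 11.9, 11.7 and 12.5 CPM in control and 46.6, 47.3 and 20.2 CPM with gRNA 2. IL11 had 10.1, 9.73 and 10.6 CPM in control and 44.4, 43.2 and 35.7 CPM, a log2 fold change of 2.02 ± 0.12 (SE, adjusted p = 3.1e-06). CSF2, the granulocyte-macrophage growth factor, had 0.384 to 0.830 CPM in control and 4.47, 4.63 and 7.96 CPM. Each was above control in every gRNA 2 library. The pattern recognition receptor TLR2 had 2, 0 and 3 counts in control and 2.18, 2.78 and 2.38 CPM with gRNA 2, at least 16.9-fold higher (adjusted p = 9.8e-05). The members called lower were IL18, from 27.7 to 30.9 CPM to 10.1 to 18.7 CPM, and CCL2, a monocyte chemokine, from 2.88 to 3.37 CPM to 1.44 to 2.16 CPM.

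Replicate 3 was lowest for several acute-phase and mitochondrial defence genes of the list. Complement C3 had 22.0, 18.8 and 22.5 CPM in control and 255, 245 and 43.0 CPM with gRNA 2, a log2 fold change of 3.10 ± 0.51 (SE, adjusted p = 0.0013) that was 3.57 without replicate 3. LCN2, an iron-scavenging protein, had 39.9, 39.5 and 10.6 CPM against 2.93 to 5.43 CPM. SOD2, the mitochondrial superoxide dismutase, had 450, 470 and 227 CPM against 146 to 147 CPM. For SAA1, an acute-phase apolipoprotein, replicate 3 (0.498 CPM) lay below all controls (0.863 to 1.22 CPM) while its mates had 5.76 and 3.85 CPM, and SAA1 was not called under at least 1 alternative (adjusted p up to 0.184). CCL20 was not called with replicate 3 (5.97 CPM against 17.6 and 24.7 CPM in its mates, adjusted p = 0.080) and was called higher by 1.30 log2 units without it.

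**Figure D2:**
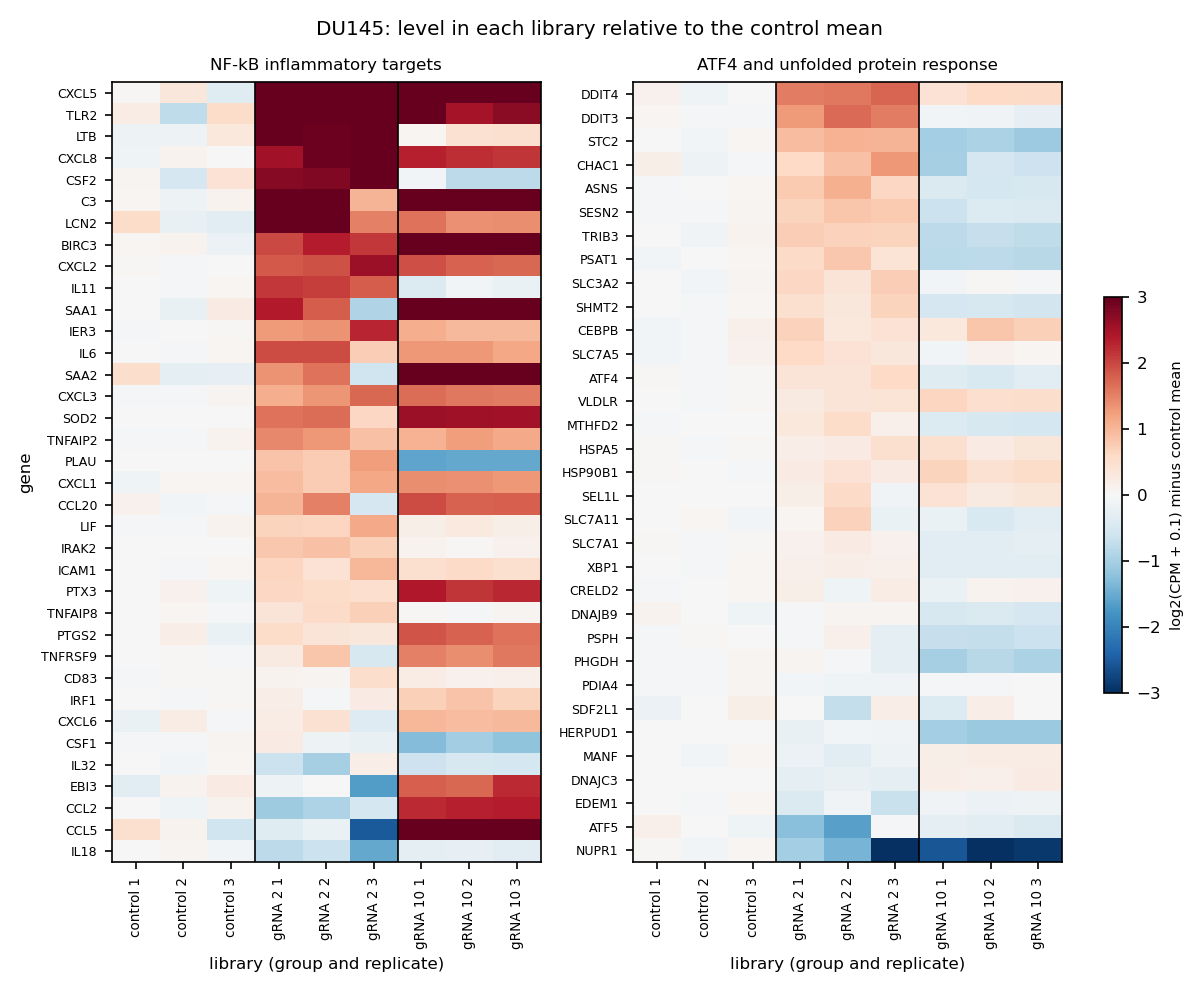
Level of each tested member of 2 gene lists in the 9 DU145 libraries, as log2(CPM + 0.1) minus the control mean, with colours ending at -3 and 3. Most NF-kB targets are red in the gRNA 2 columns, with C3, LCN2 and SAA1 paler or blue in replicate 3, and many ATF4 genes, such as STC2, TRIB3 and PSAT1, are red with gRNA 2 and blue with gRNA 10.

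The gRNA 10 cells, which are set against the same control libraries, had 25 members of the inflammatory list higher and 2 lower with a median of 1.40 (20.2% and 19.8% of all genes, 40% in all, were called with gRNA 10). Tested directly, 12 of the 36 members were higher with gRNA 2 than with gRNA 10 and 15 lower, where 19.2% and 19.6% of all genes were. BIRC3 had 457 to 516 CPM with gRNA 10, so that gRNA 2 was lower by 2.21 log2 units, and CCL2 had 15.3 to 16.6 CPM, lower by 3.21. PLAU, the urokinase plasminogen activator, had 328 to 334 CPM in control, 603, 567 and 785 CPM with gRNA 2 and 111 to 115 CPM with gRNA 10, a difference of 2.52 log2 units between the guides (adjusted p = 4.0e-07). IL11 and CSF2 were higher with gRNA 2 than with gRNA 10 by 2.25 and 3.86.

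ATF4 is the transcription factor of the integrated stress response and drives amino acid synthesis and transport genes. Of 33 tested genes of ATF4 and the unfolded protein response, 17 were called higher with gRNA 2 (51.5%, against 17.1% of all genes) and 3 lower (9.09%, against 17%), with a median log2 fold change of 0.31, and 21 and 5 without replicate 3 and 1 lower with any control library left out. ATF4 itself had 513 to 547 CPM in control and 697, 702 and 812 CPM with gRNA 2 (log2 fold change 0.46 ± 0.09 SE, adjusted p = 0.0027). DDIT4, an inhibitor of mTORC1 signalling, had 155, 130 and 139 CPM in control and 412, 424 and 472 CPM, a log2 fold change of 1.62 ± 0.10 (SE, adjusted p = 2.8e-06). DDIT3, the stress transcription factor CHOP, had 11.99 to 12.97 CPM in control and 29.9, 40.3 and 35.7 CPM, a log2 fold change of 1.51 ± 0.12 (SE). All gRNA 2 libraries lay above all control libraries for the 3 genes, and replicate 3 was the highest for ATF4 and DDIT4 and between its mates for DDIT3.

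Several members called higher act in amino acid synthesis or transport. ASNS, which makes asparagine, had 199 to 219 CPM in control and 358, 438 and 323 CPM with gRNA 2 (log2 fold change 0.84 ± 0.11 SE). PSAT1, of serine synthesis, had 522 to 568 CPM and 823, 955 and 725 CPM (0.60 ± 0.10 SE). The amino acid transporter subunits SLC7A5 and SLC3A2 rose by 0.46 and 0.59. The members called lower were NUPR1 (-1.67), EDEM1 (-0.39, or -0.26 without replicate 3) and DNAJC3 (-0.27), of which the last 2 act in protein quality control of the endoplasmic reticulum. The chaperones HSPA5 and HSP90B1 rose by 0.32 and 0.31. HSPA5, HSP90B1, EDEM1 and DNAJC3 were each not called under at least 1 alternative (adjusted p up to 0.126, 0.0921, 0.103 and 0.0725).

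With gRNA 10 the same list had 6 of 33 members higher and 16 lower than the shared control libraries, with a median of -0.33. Of all genes, 20.2% were higher and 19.8% lower with gRNA 10. In the direct test 20 of 33 members were higher with gRNA 2 than with gRNA 10 and 3 lower (19.2% and 19.6% of all genes). STC2, a secreted glycoprotein hormone, had 98.6 to 108 CPM in control, 196, 215 and 210 CPM with gRNA 2 and 48.6 to 54.1 CPM with gRNA 10, a difference between guides of 2.02 log2 units (adjusted p = 1.2e-07). TRIB3, a pseudokinase, differed by 1.45, PSAT1 by 1.41 and ATF4 by 0.85.

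Genes of AP-1 and the immediate early response, which follow growth factor and stress kinase signalling, had a median above that of all genes. Of 27 tested, 15 were called higher (55.6%, against 17.1% of all genes) and 2 lower (7.41%, against 17%), with a median of 0.60. Without replicate 3 the counts were 16 and 5 of 28 with a median of 0.36. Leaving out control replicate 2 or 3 left 9 called higher. The summed level of the list was 1389 to 1476 CPM in control and 1961 to 3372 CPM with gRNA 2.

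FOSL1, an AP-1 subunit, had 91.7, 94.8 and 99.2 CPM in control and 257, 222 and 553 CPM with gRNA 2, a log2 fold change of 1.85 ± 0.28 (SE, adjusted p = 0.00081) that was 1.34 without replicate 3. JUN, its partner, had 51.3 to 53.8 CPM in control and 72.8, 64.9 and 313 CPM, so that its log2 fold change of 1.51 became 0.39 without replicate 3, and it was not called under at least 1 alternative (adjusted p up to 0.159). The transcription factor KLF2 rose from 1.34 to 2.07 CPM to 12.2, 11.98 and 16.2 CPM (2.88 ± 0.21 SE). Among the feedback inhibitors of ERK signalling, DUSP5 had 72.6 to 83.7 CPM in control and 171, 175 and 154 CPM (1.11 ± 0.08 SE), while SPRY2 fell by 0.58. DUSP6 rose by 0.93, or 0.52 without replicate 3, and was not called under at least 1 alternative (adjusted p up to 0.0709). PHLDA1 rose by 0.63 and was 1.55 log2 units higher than with gRNA 10.

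MYC, a transcription factor of growth genes, had 83.99, 81.8 and 88.7 CPM in control and 145, 145 and 210 CPM with gRNA 2. The log2 fold change was 0.97 ± 0.13 (SE, adjusted p = 0.00049) and 0.77 without replicate 3. Its partner MAX and the antagonists MXD1 and MXI1 rose by 0.43, 0.68 and 0.57, and MLXIPL, a glucose-responsive member of the network, fell by 1.18. This makes 4 higher and 1 lower of 12 tested (33.3% and 8.33%, against 17.1% and 17% of all genes). The counts were the same without replicate 3, and 2 were lower without replicate 1 or 2. MAX was not called under at least 1 alternative (adjusted p up to 0.0719). Of 28 tested p53 targets, 12 were called higher (42.9%, against 17.1% of all genes) and 3 lower (10.7%, against 17%), with a median of 0.16. Without replicate 3 the counts were 15 and 3. With control replicates 1, 2 and 3 left out, 0, 1 and 0 were lower. GADD45A, of the DNA damage response, had 29.7 to 30.5 CPM in control and 62.4, 64.8 and 72.5 CPM (1.15 ± 0.09 SE), and the death receptor genes FAS and TNFRSF10B rose by 0.78 and 0.58. The list shares SESN2, which rose by 0.76, with the ATF4 list.

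Interferon-stimulated genes moved the other way. Of 31 tested, 13 were called lower (41.9%, against 17% of all genes) and 2 higher (6.45%, against 17.1%). The median log2 fold change was -0.45. Without replicate 3, 13 of 33 were lower and 5 higher with a median of -0.24, and 1 was higher with any control library or gRNA 2 replicate 1 left out. SAMD9, an antiviral factor, had 10.9, 9.16 and 10.4 CPM in control and 2.98, 4.29 and 1.66 CPM with gRNA 2, a log2 fold change of -1.76 ± 0.25 (SE, adjusted p = 0.00059). MX1, a dynamin-like antiviral GTPase, had 27.5 to 28.9 CPM in control and 19.1, 15.01 and 10.6 CPM, a log2 fold change of -0.92 ± 0.17 (SE). OAS3, a sensor of double-stranded RNA, had 93.5 to 94.9 CPM and 63.3, 64.7 and 63.6 CPM (-0.56 ± 0.07 SE). For SAMD9 and MX1 replicate 3 was the lowest library, and for OAS3 it was not.

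The interferon genes called higher were IFIH1, a sensor of viral RNA, from 8.35 to 10.3 CPM to 15.1, 16.5 and 17.9 CPM, and GBP2, from 6.29 to 7.08 CPM to 16.6, 15.3 and 6.14 CPM, where replicate 3 lay below every control and at least 1 alternative made no call (adjusted p up to 0.1). Against gRNA 10, 14 of the 31 members were lower with gRNA 2 and 0 higher (19.6% and 19.2% of all genes). OAS1 was among them at -3.73 (adjusted p = 4.7e-05). In MHC class I presentation 4 of 17 tested genes were called lower (23.5%, against 17% of all genes) and 2 higher (11.8%, against 17.1%), with 6 lower and 2 higher without replicate 3 and 0 higher without control replicate 1 or 2. NLRC5, the activator of MHC class I transcription, had 16.2 to 17.7 CPM in control and 9.97, 8.04 and 6.91 CPM (-1.04 ± 0.15 SE, adjusted p = 0.00071), ERAP1, HLA-F and PSMB8 fell by 0.53, 0.48 and 0.28, and TAPBP and B2M rose by 0.35 and 0.24. TAPBP was not called without control replicate 1 or 2 and B2M without any 1 control library (adjusted p up to 0.0708 and 0.113), and PSMB8 was not called under at least 1 alternative (up to 0.114).

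Of 29 tested genes of the epithelial state, 15 were called higher (51.7%, against 17.1% of all genes) and 3 lower (10.3%, against 17%). The median was 0.39, and without replicate 3 the counts were 18 and 5. With control replicates 1, 2 and 3 left out, 11, 10 and 12 were higher. CLDN4, a tight junction claudin, had 4.13, 4.12 and 4.54 CPM in control and 51.4, 33.3 and 26.3 CPM with gRNA 2, a log2 fold change of 3.12 ± 0.23 (SE, adjusted p = 1.1e-05). EPCAM, an epithelial adhesion molecule, had 56.0 to 59.7 CPM in control and 151, 151 and 356 CPM, a log2 fold change of 1.92 ± 0.29 (SE) that was 1.38 without replicate 3. The simple epithelial keratin KRT8 had 413 to 441 CPM in control and 952, 794 and 1345 CPM (1.28 ± 0.16 SE). CDH1, E-cadherin, had 34.2 and 34.1 CPM in gRNA 2 replicates 1 and 2 and 16.2 CPM in replicate 3 against 18.0 to 23.8 CPM in control, and was called at 0.76 without replicate 3 and not called with it (adjusted p = 0.14). CLDN3, CLDN7 and the protease ST14 fell by 0.65, 0.65 and 0.66, of which CLDN7 was not called without control replicate 3 (adjusted p = 0.059). Against gRNA 10, 17 of the 29 were higher and 1 lower (19.2% and 19.6% of all genes), among them CLDN4 by 3.69 and EPCAM by 2.69. The gRNA 10 cells had 6 members higher and 10 lower than the shared control libraries (20.2% and 19.8% of all genes).

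Mesenchymal genes split into rises and falls, with 8 called higher and 9 lower of 25 tested (32% and 36%, against 17.1% and 17% of all genes). The counts were 10 and 10 without replicate 3, and 5 were higher without control replicate 2. COL5A1, a fibrillar collagen chain, had 56, 56 and 61 counts in the control libraries and 0 in each gRNA 2 library, at least 18.1-fold lower (adjusted p = 1.2e-05). COL5A2, which assembles with it, had 16.4, 17.2 and 18.8 CPM in control and 4.91, 5.65 and 1.99 CPM, a log2 fold change of -2.05 ± 0.27 (SE). The matrix protein THBS1 had 127 to 138 CPM in control and 43.8, 47.5 and 25.1 CPM (-1.76 ± 0.19 SE). Fibronectin (FN1) fell by 1.17, and the repressors ZEB2 and ZEB1 by 0.94 and 0.55. The rises besides TNC included CCN2 and CCN1, matricellular proteins, at 1.30 and 1.01, SNAI1 at 0.92 and VIM at 0.56. Replicate 3 was the lowest library for COL5A2, THBS1 and FN1 and the highest for CCN2 and VIM. Without it FN1 was at -0.77 and VIM at 0.26, and each was not called under at least 1 alternative (adjusted p up to 0.0981 and 0.11).

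Of 24 tested integrins and laminins, 5 were called higher (20.8%, against 17.1% of all genes) and 3 lower (12.5%, against 17%), or 8 and 5 without replicate 3. The rises included ITGB4, ITGA6, LAMB3 and ITGA2, of which ITGA2 was not called under at least 1 alternative (adjusted p up to 0.0529). ITGB4 had 19.3 to 24.8 CPM in control and 69.8, 59.7 and 80.1 CPM with gRNA 2 (log2 fold change 1.62 ± 0.14 SE, adjusted p = 2.6e-05). ITGA7 fell from 24.7 to 26.5 CPM to 5.76, 5.12 and 2.32 CPM (-2.54 ± 0.24 SE). LAMA1 and LAMB2 fell by 1.26 and 1.00. In bulk samples fewer cells of a state and less RNA per cell cannot be told apart, here and for every list.

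**Figure D3:**
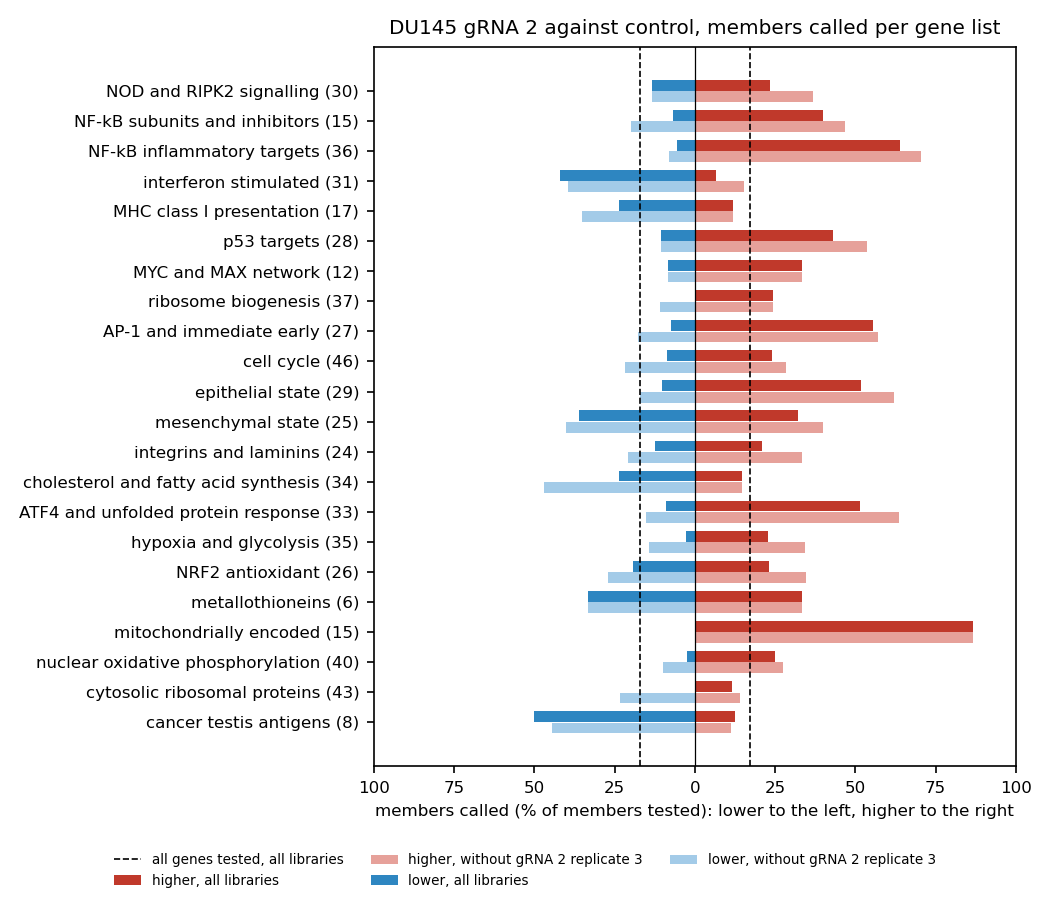
Percentage of the tested members of each gene list called higher (to the right) or lower (to the left) with gRNA 2 against control, with all libraries and without gRNA 2 replicate 3; the number tested stands after each name and dashed lines mark all genes tested, at 17.1% and 17%. Mitochondrially encoded genes, NF-kB inflammatory targets and AP-1 genes reach farthest to the right with all libraries, and cancer testis antigens and interferon-stimulated genes farthest to the left.

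Mitochondrially encoded transcripts were called higher in 13 of 15 cases (86.7%, against 17.1% of all genes) with none lower (against 17%). The median log2 fold change was 0.77, or 0.50 without replicate 3. MT-CO1, a core subunit of cytochrome oxidase, had 2789, 2844 and 2852 CPM in control and 4207, 5393 and 8700.0 CPM with gRNA 2, a log2 fold change of 1.11 ± 0.22 (SE, adjusted p = 0.0033). All gRNA 2 libraries were above all controls and replicate 3 was the highest, as for the share of mitochondrial counts given above. Of 40 nuclear genes of oxidative phosphorylation, 10 were called higher (25%, against 17.1% of all genes) and 1 lower (2.5%, against 17%). The counts were 11 and 4 without replicate 3 and 16 and 0 without replicate 2. With a control library left out, 5 or 6 were higher. NDUFB3, a subunit of complex I, rose by 0.70 ± 0.09 (SE), with 20.5 to 22.2 CPM in control and 34.3, 36.4 and 34.4 CPM.

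For genes of ribosomes the count depended on single libraries. Of 43 cytosolic ribosomal protein genes, 5 were called higher (11.6%, against 17.1% of all genes) and 0 lower (against 17%), with a median of 0.14. Without replicate 3, 6 were higher and 10 lower with a median of -0.04. Without replicate 2, 20 were higher, and without control replicate 1, 2 or 3, 1 was higher. The summed level was 31741 to 32638 CPM in control and 29705 to 47742 CPM with gRNA 2, the highest in replicate 3. RPL6 was higher in each gRNA 2 library, with 677 to 714 CPM in control and 1037, 915 and 1650.0 CPM, a log2 fold change of 0.80 that was 0.51 without replicate 3. Of 37 ribosome biogenesis genes, 9 were called higher (24.3%, against 17.1% of all genes) and 0 lower (against 17%). The counts were 9 and 4 without replicate 3 and 16 and 0 without replicate 2. With any 1 control library left out they were 5 and 0. The rises were led by BOP1 at 0.94 and NOP56 at 0.79, both highest in replicate 3. Without replicate 3 they were at 0.48 and 0.50, and BOP1 was not called with any 1 control library left out or with no filter on low counts (adjusted p up to 0.0788).

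Of 46 cell cycle genes, 11 were called higher (23.9%, against 17.1% of all genes) and 4 lower (8.7%, against 17%). The counts were 13 and 10 without replicate 3 and 18 and 3 without replicate 2. With a control left out they were 4 or 5 and 2. CDK6, a kinase of G1 progression, had 5.14, 5.85 and 5.51 CPM in control and 26.5, 34.9 and 44.6 CPM with gRNA 2, a log2 fold change of 2.68 ± 0.18 (SE, adjusted p = 5.0e-06). Cyclin D1 (CCND1) rose by 0.62, and the S-phase cyclins CCNE1 and CCNE2 fell by 0.56 and 0.43, of which CCNE2 was not called under at least 1 alternative (adjusted p up to 0.113).

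Among metabolic lists, cholesterol and fatty acid synthesis had 5 members higher and 8 lower of 34 (14.7% and 23.5%, against 17.1% and 17% of all genes). The lower count was 16 without replicate 3 and 2, 5 and 3 without control replicates 1, 2 and 3, and the higher count 2, 3 and 2. CYP51A1, a sterol demethylase, had 6.83 to 7.58 CPM in control and 3.72, 2.24 and 2.99 CPM (-1.29 ± 0.23 SE), while the regulator SREBF1 rose by 0.66. Hypoxia and glycolysis genes had 8 higher and 1 lower of 35 (22.9% and 2.86%, against 17.1% and 17% of all genes). The counts were 12 and 5 without replicate 3 and 14 and 1 without replicate 2. The member called lower, ANGPTL4, an inhibitor of lipoprotein lipase, had 38.6, 31.7 and 34.0 CPM in control and 2.33, 1.75 and 6.53 CPM (-3.32 ± 0.35 SE). HK2 and GAPDH, both of glycolysis, rose by 1.04 each, highest in replicate 3, and by 0.65 and 0.68 without it. Of 26 NRF2 genes 6 were higher (23.1%, against 17.1% of all genes) and 5 lower (19.2%, against 17%), or 9 and 7 without replicate 3 and 3 higher with any control library left out, with TXNRD1 up by 0.58 and HMOX1, heme oxygenase, down by 1.04 from 137 to 148 CPM to 77.8, 59.9 and 70.0 CPM.

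Metallothioneins, which bind zinc and copper, had 2 of 6 tested members higher and 2 lower (33.3% each, against 17.1% and 17% of all genes). The counts were the same without replicate 3, and 1 was lower with any control library left out. MT2A had 250.3, 253 and 261 CPM in control and 928, 789 and 1465 CPM with gRNA 2 (log2 fold change 2.06 ± 0.19 SE, adjusted p = 4.8e-05). MT1E rose by 1.12, MT1M was at least 7.65-fold lower and MT1F fell by 0.70, or 0.42 without replicate 3, and was not called with any 1 control library left out (adjusted p up to 0.13). Near-identical copies in this family may share reads, and how such reads were counted is not given in the sources used here. Of 8 tested cancer testis antigens, 4 were called lower (50%, against 17% of all genes) and 1 higher (12.5%, against 17.1%). Without replicate 1, 6 were lower, and without replicate 3 the counts were 4 and 1 of 9. BRDT fell from 40.8 to 44.2 CPM to 18.2, 24.1 and 15.9 CPM and PRAME rose by 0.45.

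The 5 genes that stood highest in replicate 3 against its mates were FOSB, FOS, KRTAP2-3, EGR1 and H2BC21, by 5.13, 4.38, 3.54, 3.22 and 2.59 log2 units. FOSB, FOS and EGR1 are immediate early genes, and the values of KRTAP2-3 are given above. FOSB had 0.671 to 1.15 CPM in control, 0.595 and 0.487 CPM in replicates 1 and 2 and 22.2 CPM in replicate 3. FOS had 3.70 to 5.37 CPM in control, 3.72 and 4.87 CPM in the mates and 90.7 CPM in replicate 3. EGR1 had 45.2 to 50.6 CPM in control, 36.3 and 38.3 CPM in the mates and 348 CPM in replicate 3. None of these 3 was called (adjusted p of 0.076, 0.052 and 0.11), and their log2 fold changes of 2.98, 2.79 and 1.58 became -0.82, -0.14 and -0.33 without replicate 3. The histone gene H2BC21 was at 66.5 CPM in replicate 3 against 10.0 to 11.6 CPM in the other 5 libraries.

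At the lower end, ABAT, an enzyme of GABA breakdown, had 6.75 and 8.62 CPM in the mates and 0.830 CPM in replicate 3, OLFML2A 14.2 and 14.5 CPM against 1.77 CPM, and ADAMTSL4 71.6 and 64.9 CPM against 9.46 CPM. The junction protein TJP3 and the citrullinating enzyme PADI2 were likewise lowest in replicate 3, at 1.11 and 2.88 CPM. PADI2 had 12.6 to 13.1 CPM in control, and its log2 fold change was 0.09 with replicate 3 and 0.57 without it. RNA quality was not recorded in the labels, and the mitochondrial share of replicate 3 is given above. Its part in these values was not tested.

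**Figure D4:**
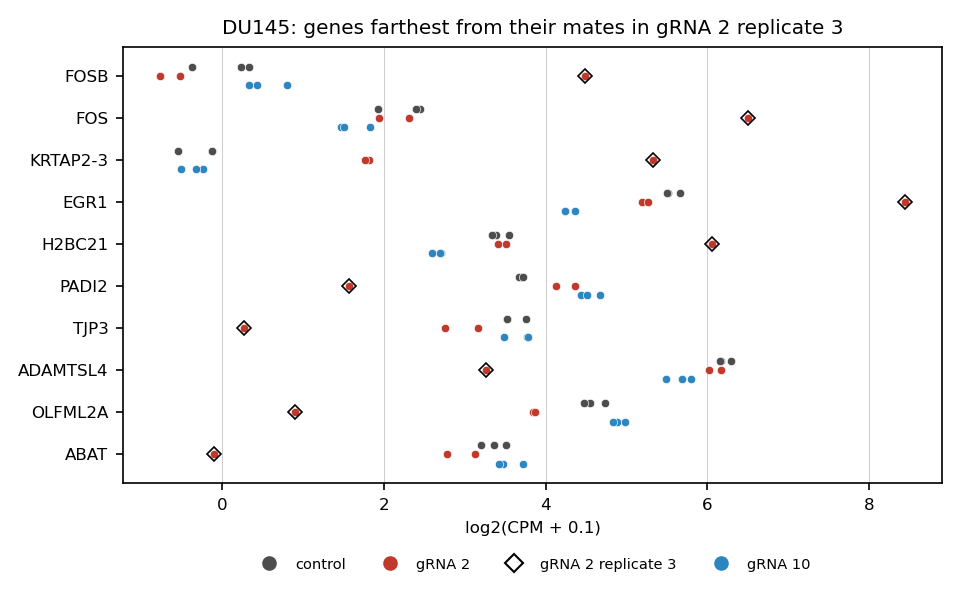
Level in each DU145 library of the 5 genes highest and the 5 genes lowest in gRNA 2 replicate 3 relative to its mates, on a log2(CPM + 0.1) axis. The outlined replicate 3 point lies far from gRNA 2 replicates 1 and 2 in every gene, while the gRNA 2 mates lie near the control points for FOS, H2BC21 and ADAMTSL4.

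Between the guides, 5789 of the 14908 genes (38.8%) differed when gRNA 2 was tested directly against gRNA 10, 2860 higher and 2929 lower with gRNA 2, and 7266 without replicate 3. The gRNA 2 effect in DU145 was also tested against the gRNA 2 effect in PC3, which has its own control libraries. The effects differed in 5859 of 15332 genes (38.2%), and in 7951 without DU145 gRNA 2 replicate 3. In that joint fit 6113 genes were called in DU145 (39.9%) and 6032 in PC3 (39.3%), and 2721 in both lines, of which 1383 changed in the same direction and 1338 in opposite directions. The genes called in the same direction make up 22.6% of the DU145 calls and 22.9% of the PC3 calls. RIPK2 fell from 62.2 to 65.5 CPM to 21.1 to 22.7 CPM in PC3, and its fall in DU145 differed from that in PC3 by -0.29 ± 0.14 log2 units (SE, adjusted p = 0.12).

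Changes were also laid out along the chromosomes, as the median log2 fold change of windows of 40 neighbouring genes in steps of 10, with 14497 genes placed by symbol in GENCODE 29 (hg38). Of 1388 windows, 38 (2.74%) had a median of at least 0.4 in size, and they merged into 10 runs, 6 higher and 4 lower. The strongest lay at the start of the genes of chromosome 14 (19062316 to 23035230), where 37 of 40 genes were lower, with a median of -0.64. Of these 40, 25 were called lower, against 17% of all genes. The medians there were -0.65, -0.61 and -0.54 in the gRNA 2 libraries, and -0.88 over the gRNA 10 cells against the shared control.

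On chromosome 3, 2 runs (45823316 to 49277909 and 49716844 to 52685917) held 50 and 60 genes with medians of -0.42 and -0.48. In these runs 32 and 31 genes were called lower and 0 higher in either, against 17% and 17.1% of all genes. The same genes had medians of -0.43 and -0.32 with gRNA 10 in DU145, against the shared control, and 0.41 and 0.49 in PC3 with gRNA 2. On chromosome 20 (3783851 to 31606515) 90 genes had a median of 0.47, with 48 called higher and 2 lower (17.1% and 17% of all genes). Their median was 0.53 with gRNA 10 and -0.41 in PC3 with gRNA 2. On the short arm of chromosome 4 (1347266 to 40630875) 130 genes had a median of 0.43, with 67 called higher and 6 lower, beside the same shares. The gRNA 10 median of this stretch was 0.13. Between the guides 69 of its 130 genes differed (38.8% of all genes), 53 higher and 16 lower with gRNA 2 (19.2% and 19.6% of all genes).

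The other runs were 3 on chromosome 2 with medians of 0.45, 0.41 and 0.41, 1 on chromosome 11 at -0.42 and 1 on chromosome 17 at 0.34. In the same order, the gRNA 10 medians were 0.51, 0.08, 0.10, -0.55 and 0.49. In PC3 with gRNA 2 the medians were 0.08, -0.19, -0.50, -0.59 and -0.25. For the runs on chromosomes 14 and 4 the PC3 medians were 0.04 and 0.02. The median of each of the 10 runs had the same sign in all 3 gRNA 2 libraries. The runs were picked for their medians, so these values are a description.

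**Figure D5:**
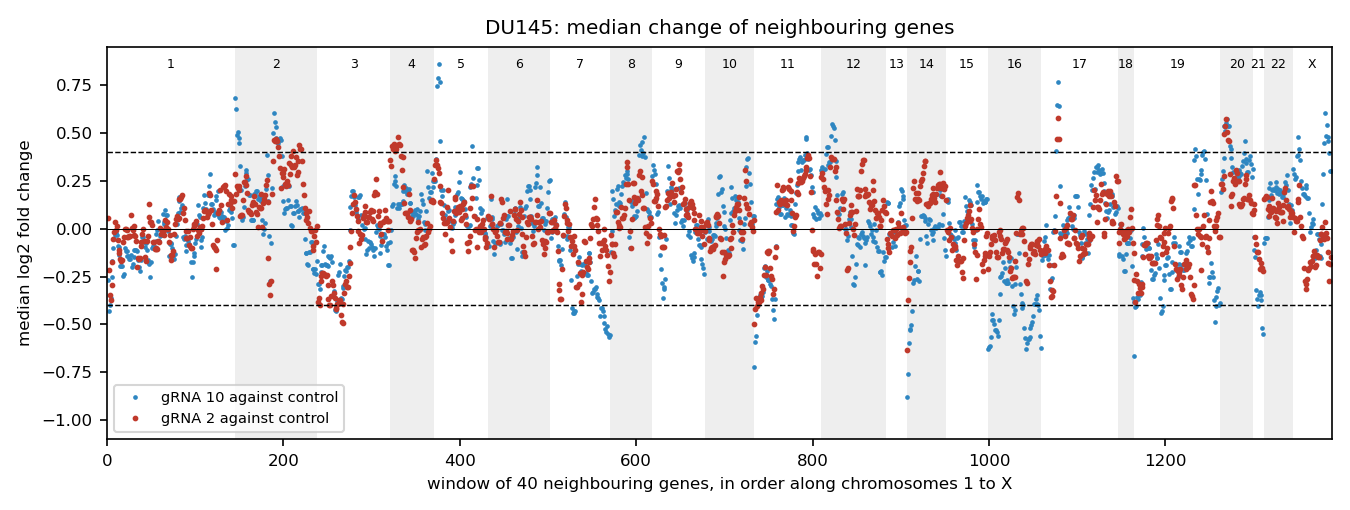
Median log2 fold change of windows of 40 neighbouring genes, ordered along chromosomes 1 to X, for gRNA 2 and gRNA 10 against the control libraries that both share; dashed lines mark -0.4 and 0.4. Runs of gRNA 2 points pass the lines on chromosomes 2, 4, 17 and 20 above and on chromosomes 3, 11 and 14 below.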

How the data were processed

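The authors deposited a table of raw read counts per gene symbol for each cell line, per the file headers. RNA was column-purified and made into strand-specific mRNA libraries read as 150-base pairs, per the labels' protocols. The submitters' processing notes name FastQC, STAR, edgeR and hg38. The counting program, the annotation and any filter on genes are not given in the sources used here.

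The DU145 table held 23534 rows, of which 2 repeated symbols were summed, and all value columns belonged to the libraries of the series. In R 4.3.3, edgeR 4.0.16 (TMM factors 0.902 to 1.04, filterByExpr at 10 counts and 15 in total, robust quasi-likelihood F test, two-sided) was fitted to the 9 DU145 libraries with group as the only term. The difference between the lines came from 1 such fit of the control and gRNA 2 libraries of DU145 and PC3 together. Genes were called at a Benjamini-Hochberg adjusted p below 0.05 over all genes tested. The standard error was derived from the F statistic. Alternatives were RLE factors, DESeq2 1.42.0, other filters, fewer libraries and a replicate block. On simulated counts with 200 changed genes, the contrast recovered 34% at a fold of 1.5 (5 false calls, 14439 genes) and 82% at a fold of 2 (11 false calls, 14463 genes). The difference between lines, simulated at a fold of 2, recovered 65.5% (5 false calls, 15102 genes). Simulated counts had the same spread per gene in all groups and no library that stood apart. The rates of recovery and false calls therefore do not cover a library such as gRNA 2 replicate 3.

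The libraries compared and the 22 gene lists were chosen with earlier results of these data known. Named genes are RIPK2, NOD1, NOD2 and MYC, the 8 largest rises and falls, up to 2 rises and 2 falls per list, and the 5 genes highest and lowest in replicate 3. Rises and falls had to be called with and without replicate 3, with a mean of at least 100 counts in the higher group, no overlap and an official symbol. Other list members named were picked after their values were seen.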

Additional observations from a re-analysis of the deposited data

Results flagged for a closer look

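The effect of gRNA 2 differed between DU145 and PC3 in 62 of the 94 named genes tested in both lines, by a test of the difference itself in the joint edgeR fit. Of these, the 12 among RIPK2, NOD1, NOD2, MYC and the 8 largest rises and falls are given here. Over all genes tested in both lines, 5859 of 15332 (38.2%) differed. Genes were named mostly for their change in DU145, so the count of 62 is a description. Differences are given as the DU145 effect minus the PC3 effect on the log2 scale. MAL2 differed by 6.67 (adjusted p = 1.2e-10), with 521 to 531 CPM in PC3 control and 391 to 407 CPM in PC3 gRNA 2. FAM110C differed by 6.77 (adjusted p = 1.2e-10), falling in PC3 from 262 to 284 CPM to 42.5 to 43.6 CPM while it rose in DU145. MYC differed by 1.43 and NOD1 by -1.11, and both moved in opposite directions in the 2 lines, with PC3 effects of -0.45 and 0.74.

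CXCL5 differed by 5.26, TNC by 3.33 and BTBD11 by 2.61, and TNC and BTBD11 rose in PC3 as well, by 1.69 and 1.34. Among the falls, ERICH5 differed by -4.78 and rose in PC3 by 0.54, and NOVA2 differed by -3.57 and fell in PC3 by 0.81. KLF8 differed by -3.59, SEMA3E by -4.85 and SDR42E1 by -9.40. These 3 had under 0.4 CPM in every PC3 library, and the value of SDR42E1 rests on fitted values near 0 counts.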

How the results depend on the processing

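The count of 5072 called genes was 3335 when the libraries compared were fitted alone, of which 1618 were lower. It ranged from 3259 to 6957 with a library left out (1588 to 3517 higher, 1671 to 3440 lower). Fitting the libraries compared without gRNA 2 replicate 3, chosen after seeing the data, gave 6245. Changes of at least 1 log2 unit numbered 753 with a filter of 10 counts in every library, which tests fewer genes, and 1151 to 1504 with a library left out. RIPK2 stayed lower and called under every alternative. Without gRNA 2 replicate 3, FOSB was -0.82, FOS -0.14 and EGR1 -0.33; with another library left out they reached 3.55, 3.33 and 2.04. PADI2 was -0.038 with the replicate block, -0.12 and -0.32 without gRNA 2 replicates 1 and 2, and 0.57 without replicate 3. The cause of these shifts was not tested. Of 96 named genes, 73 kept direction and call under every alternative run. Most of them were named only if also called without replicate 3, which is among these alternatives. The count of 73 is therefore partly fixed by the way genes were picked. Control and gRNA 2 libraries of the same title number had correlations of deviations of -0.04, 0.12 and 0.06. Libraries of unlike number had -0.24 to 0.18, and not every library correlated best with its own number. These values cannot show whether any libraries were handled together, so no pairing was used in the main fit. The replicate block, by title number, gave 4476 calls, 5229 between the guides and 5445 between the lines. Of 572 list counts, 112 moved by over 1.5 times. At this depth a count of 0 allows a level of up to 0.144 to 0.166 CPM.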
